A study of Mus musculus with 12 samples.

Results

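The 10 genes described here are epithelial genes of the gut that differ by region. They are 6 small intestinal genes (Apoa1, Apoa4, Apob, Fabp1, Fabp2 and Slc5a1) and 4 colonic genes (Car1, Slc26a3, Aqp8 and Muc3), chosen as a list of symbols and looked up among the 32052 genes of a count table. The question was whether epithelial RNA found in sorted stromal cells carries the pattern of the gut region that the cells were taken from. The 12 libraries came from mice of 8 to 12 weeks on a C57Bl6 background that carry an Rspo3-GFP transgene, a reporter for the gene of the Wnt amplifier R-spondin 3. EPCAM-negative, CD45-negative stromal cells were sorted into GFP-negative and GFP-positive cells from the small intestine and, separately, from the colon, with 3 libraries in each of the 4 groups. All groups share the strain, the transgene and the gates against epithelial and blood cells. The labels give no treatment, do not say whether animals were pooled or whether replicates are separate animals, and do not say how the reporter allele was made. The p-values therefore measure the spread between these libraries, which may be technical.

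Enterocytes of the small intestine take up fat and sugar. Absorbed fat is rebuilt inside the cell and leaves it as chylomicrons, lipoprotein particles built on apolipoprotein B that also carry apolipoproteins A-I and A-IV. Fatty acid-binding proteins carry fatty acids through the cytosol, and the sodium-glucose cotransporter SGLT1, product of Slc5a1, imports glucose at the brush border. Colonic surface cells absorb salt and water, using carbonic anhydrase 1 and the chloride-bicarbonate exchanger encoded by Slc26a3, which is also called DRA. Apolipoproteins, Fabp1 and Aqp8 are made in liver as well, and Car1 in red cells.

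Several of these promoters bear letters recognised by regulators of gut epithelium, and 4 are shown: Apoa4 and Fabp1, nearly absent from the colonic libraries, Fabp2, read in both regions, and the colonic gene Slc26a3. Sequences were taken from RefSeq for GRCm38.p6, where 9 of the 10 genes had an entry. Each run gives the 250 bases upstream of the RefSeq start on the strand of the gene, 5′ to 3′, and capitals mark matches to 3 motifs searched on both strands. These were CAAAGNTCA (an HNF4-type motif, in 1.32% of 32851 promoters of the same length), an HNF1-type motif (in 0.0609%) and TTTATNG (a CDX-type motif, in 9.81%). The last can overlap a TATA box on the reverse strand, as it did in the Apob promoter, which is not shown.
Apoa4 (chr9:46240594-46240843, plus strand): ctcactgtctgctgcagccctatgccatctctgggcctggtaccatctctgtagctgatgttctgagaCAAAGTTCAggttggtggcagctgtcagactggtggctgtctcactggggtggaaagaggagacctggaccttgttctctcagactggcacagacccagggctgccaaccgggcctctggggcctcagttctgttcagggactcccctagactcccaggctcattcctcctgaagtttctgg
Fabp1 (chr6:71199629-71199878, plus strand): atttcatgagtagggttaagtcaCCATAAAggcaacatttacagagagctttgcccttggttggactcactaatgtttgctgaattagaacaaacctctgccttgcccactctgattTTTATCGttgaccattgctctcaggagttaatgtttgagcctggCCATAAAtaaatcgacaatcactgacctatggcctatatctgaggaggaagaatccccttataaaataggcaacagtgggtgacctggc
Fabp2 (chr3:122894822-122895071, plus strand): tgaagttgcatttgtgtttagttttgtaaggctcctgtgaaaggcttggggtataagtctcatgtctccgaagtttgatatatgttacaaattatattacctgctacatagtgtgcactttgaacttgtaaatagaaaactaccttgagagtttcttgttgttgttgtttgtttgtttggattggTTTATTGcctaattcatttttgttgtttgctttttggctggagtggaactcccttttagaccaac
Slc26a3 (chr12:31437969-31438218, plus strand): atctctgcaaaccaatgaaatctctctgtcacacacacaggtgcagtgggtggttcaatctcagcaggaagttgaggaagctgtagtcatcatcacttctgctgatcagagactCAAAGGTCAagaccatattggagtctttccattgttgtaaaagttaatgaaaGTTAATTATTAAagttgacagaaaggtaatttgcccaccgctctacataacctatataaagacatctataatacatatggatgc
The HNF4-type letters stood at -182 to -174 in Apoa4, a small intestinal gene, and at -136 to -128 in Slc26a3, a colonic gene. Slc26a3 also held the HNF1-type letters at -84 to -73, in a window that starts 47348 bases from the GENCODE start of the gene. Fabp1 held 3 CDX-type matches and Fabp2 held 1. The promoters of Apoa1, Slc5a1, Aqp8 and Muc3 had no match in these windows. The RefSeq start used for Muc3 lies 16724 bases from the GENCODE start of the gene. A match is a description of letters and says nothing of binding.

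Library totals ranged from 6489835 to 12286054 counts. Rspo3 measured 117 to 196 CPM (counts scaled to a fixed library total, with TMM factors) in GFP-positive libraries and 2.28 to 13.7 CPM in GFP-negative ones. Posterior Hox genes, which mark the hindgut, summed to 0 to 21 counts per small intestinal library and to 178 to 605 per colonic library. A list of 12 stromal genes summed to between 10610 and 60100 CPM. A marker list of 14 pan-epithelial genes, Epcam among them, nevertheless gave counts in every library, though not every gene did. In small intestinal GFP-positive replicates 1 to 3, 5, 5 and 2 of the 14 had no count, and Epcam held 0, 22 and 4. The 14 genes summed to 320 to 960 CPM in small intestinal GFP-negative and 21.8 to 23.8 CPM in small intestinal GFP-positive libraries. They summed to 1272 to 3033 CPM in colonic GFP-negative and 408 to 2139 CPM in colonic GFP-positive libraries. Replicate 3 of the colonic GFP-positive group stood apart with 2139 CPM, against 408 and 753 CPM in replicates 1 and 2. Replicate 3 of the small intestinal GFP-negative group stood apart by leukocyte genes, which summed to 1013 CPM there and to at most 36.0 CPM in any other library. In such bulk samples, fewer epithelial cells and less RNA per cell cannot be told apart.

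All 10 genes passed the filter on low counts, each through the group where it is high. The small intestinal genes made up nearly all member counts in small intestinal libraries and a small part in colonic ones. Their share was 93.8%, 93.4% and 96.4% in small intestinal GFP-negative replicates 1 to 3, with exact 95% binomial intervals from 92.2% to 96.9%. It was 7.55%, 6.40% and 8.49% in colonic GFP-negative replicates, and 7.47%, 9.76% and 8.60% in colonic GFP-positive replicates. The group means were 94.5% ± 1.64 (SD, n = 3), 7.48% ± 1.05 (SD, n = 3) and 8.61% ± 1.15 (SD, n = 3). In the small intestinal GFP-positive group the share was 91.1% ± 4.88 (SD, n = 3), but it rested on 21, 14 and 13 counts per library and its intervals ran from 57.2% to 99.9%. All colonic shares lay below all small intestinal ones. The share is a description with no test, and its intervals cover counting error only. Muc3 was the member with the most counts and weighs on it: without Muc3 the share was 98.4% in small intestinal GFP-negative, 18.2% in colonic GFP-negative and 26.9% in colonic GFP-positive libraries.

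**Figure D1:**
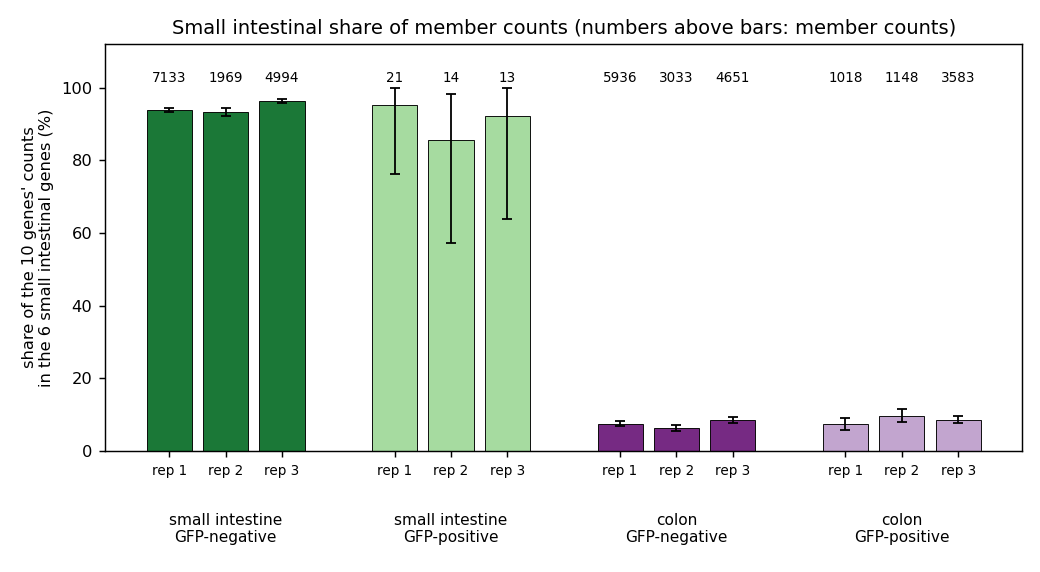
Share of the counts of all 10 genes that fell on the 6 small intestinal genes (vertical axis, %), one bar per library, with exact 95% binomial intervals and the member counts printed above each bar. The 6 small intestinal libraries lie between 85.7% and 96.4% and the 6 colonic libraries between 6.40% and 9.76%.

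Of the 6 small intestinal genes, Apoa1, Apoa4 and Fabp1 had the greatest differences between the tissues in GFP-negative cells. Apoa1 encodes the main protein of high-density lipoprotein and a chylomicron protein (ENSMUSG00000032083, GRCm38 chr9:46228580-46230466, plus strand). In small intestinal GFP-negative replicates 1 to 3 it measured 191, 75.1 and 244 CPM, against 0.587, 0 and 4.05 CPM in their colonic counterparts. Every small intestinal value lay above every colonic value, and the colonic signal was mostly in replicate 3. Apoa1 fell by 6.77 ± 1.09 (log2, SE) from small intestinal to colonic GFP-negative libraries (edgeR quasi-likelihood test, Benjamini-Hochberg adjusted p = 0.0105). Pooled over libraries, its 3825 and 36 counts gave a ratio of 103 (95% counting interval 74.6 to 148).

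Apoa4 lies beside Apoa1 (ENSMUSG00000032080, chr9:46240696-46243459, plus strand) and encodes an apolipoprotein secreted with chylomicrons during fat absorption. It measured 214, 27.6 and 97.9 CPM in small intestinal GFP-negative libraries and 0, 0 and 2.91 CPM in colonic GFP-negative ones. The groups did not overlap, and replicates 1 and 2 of the colon had no count. Its difference was -6.83 ± 1.35 (log2, SE; edgeR adjusted p = 0.0257). The call was lost without small intestinal replicate 1 and without colonic replicates 1 or 2 (edgeR adjusted p = 0.0763, 0.078 and 0.0961). Gm10680, an antisense gene that overlaps it, held 5 counts over the small intestinal GFP-negative libraries and 0 elsewhere. The counting setting for strand is not given in the sources used here, so reads of the pair cannot be told apart.

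Fabp1, the fatty acid-binding protein of liver and proximal gut (ENSMUSG00000054422, chr6:71199827-71205023, plus strand), measured 95.9, 15.04 and 51.6 CPM in small intestinal GFP-negative libraries. In colonic GFP-negative libraries it held 0, 0 and 4 counts, the last being 0.507 CPM. The groups were far apart, with a difference of -8.20 ± 1.42 (log2, SE; edgeR adjusted p = 0.0125). The call was lost without colonic GFP-negative replicate 1, 2 or 3 (edgeR adjusted p = 0.054, 0.0712 and 0.0619), and held without any 1 small intestinal replicate (0.0061 to 0.0427).

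Apob, Fabp2 and Slc5a1 were lower in the colon too, but by far less, and they stayed readable in every colonic GFP-negative library. Apob encodes the structural protein of chylomicrons (ENSMUSG00000020609, chr12:7977648-8016835, plus strand). It measured 190, 43.5 and 216 CPM in small intestinal and 25.8, 8.00 and 16.3 CPM in colonic GFP-negative libraries. The groups did not overlap, and Apob fell by 3.17 ± 0.71 (log2, SE; edgeR adjusted p = 0.0362). Fabp2 encodes the intestinal fatty acid-binding protein (ENSMUSG00000023057, chr3:122895072-122899506, plus strand). Its values were 59.6, 10.3 and 70.6 CPM against 21.3, 7.20 and 10.01 CPM, so that small intestinal replicate 2 lay within the colonic range. Its difference of -1.87 ± 0.94 (log2, SE) did not pass the test (edgeR adjusted p = 0.333). Slc5a1 (ENSMUSG00000011034, chr5:33104219-33162870, plus strand) measured 54.2, 20.6 and 93.9 CPM against 18.0, 6.97 and 16.2 CPM. These groups did not overlap, but the difference of -2.03 ± 0.73 (log2, SE) missed the threshold (edgeR adjusted p = 0.156).

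The colonic genes were higher in the colon. Car1 encodes carbonic anhydrase 1 (ENSMUSG00000027556, chr3:14766216-14808368, minus strand). It held 4, 14 and 0 counts in small intestinal GFP-negative replicates 1 to 3 and 1167, 434 and 1049 counts in the colonic ones, which is 171, 49.6 and 133 CPM. The groups were separated by more than an order of magnitude, and Car1 rose by 7.34 ± 0.93 (log2, SE; edgeR adjusted p = 0.00549). Car1 is also a red cell gene, and 8 erythroid genes summed to 1 to 29 counts in the small intestinal and 4 to 8 counts in the colonic GFP-negative libraries, and none passed the filter.

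Slc26a3 (ENSMUSG00000001225, chr12:31390871-31473917, plus strand) measured 11.7, 2.93 and 7.56 CPM in small intestinal and 116, 45.3 and 57.8 CPM in colonic GFP-negative libraries. It rose by 3.31 ± 0.61 (log2, SE; edgeR adjusted p = 0.0137), with no overlap between groups. Aqp8 encodes a water channel of colonic surface cells (ENSMUSG00000030762, chr7:123462291-123468004, plus strand). It held 15, 0 and 0 counts in small intestinal and 140, 92 and 109 counts in colonic GFP-negative libraries. Although the groups did not overlap, its difference of 4.57 ± 1.33 (log2, SE) did not pass the test (edgeR adjusted p = 0.0962). Without small intestinal GFP-negative replicate 1, the only library of that group with a count, the adjusted p was 0.0226.

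Muc3 encodes a membrane-bound mucin of the epithelial surface (ENSMUSG00000037390, chr5:137134922-137149322, minus strand) and was the most abundant member in the colon. It measured 497, 219 and 335 CPM in colonic GFP-negative libraries against 39.6, 9.19 and 21.4 CPM in small intestinal ones. All colonic values lay above all small intestinal ones, and Muc3 rose by 3.91 ± 0.65 (log2, SE; edgeR adjusted p = 0.0105). Its neighbour in name, Muc3a, is counted separately, could share reads with it, and held 140 counts over the 3 colonic and 16 over the 3 small intestinal GFP-negative libraries.

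In all, 4 of the 6 small intestinal genes were called lower and 3 of the 4 colonic genes were called higher in colonic GFP-negative libraries. Fabp2, Slc5a1 and Aqp8 went the same way as their lists without passing. Over the 16757 genes tested, 4.21% were called in this comparison, 2.01% lower and 2.2% higher. The median difference was -4.97 (log2) for the small intestinal genes and 4.24 for the colonic genes, beside -0.057 for all genes tested. The calls of Car1, Slc26a3 and Muc3 stood in all 14 alternative analyses, whereas Apob lost its call in 7, Apoa4 in 5, Fabp1 in 3 and Apoa1 in 1. Leaving out 1 library moved the number of small intestinal genes called lower from 4 to 2 without small intestinal replicate 1, to 1 without colonic replicate 1, to 1 without colonic replicate 2 and to 2 without colonic replicate 3. Without small intestinal replicate 3, the library with the leukocyte genes, 3 were called lower, with Apob at adjusted p = 0.0531 by edgeR, and 3 colonic genes higher.

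**Figure D2:**
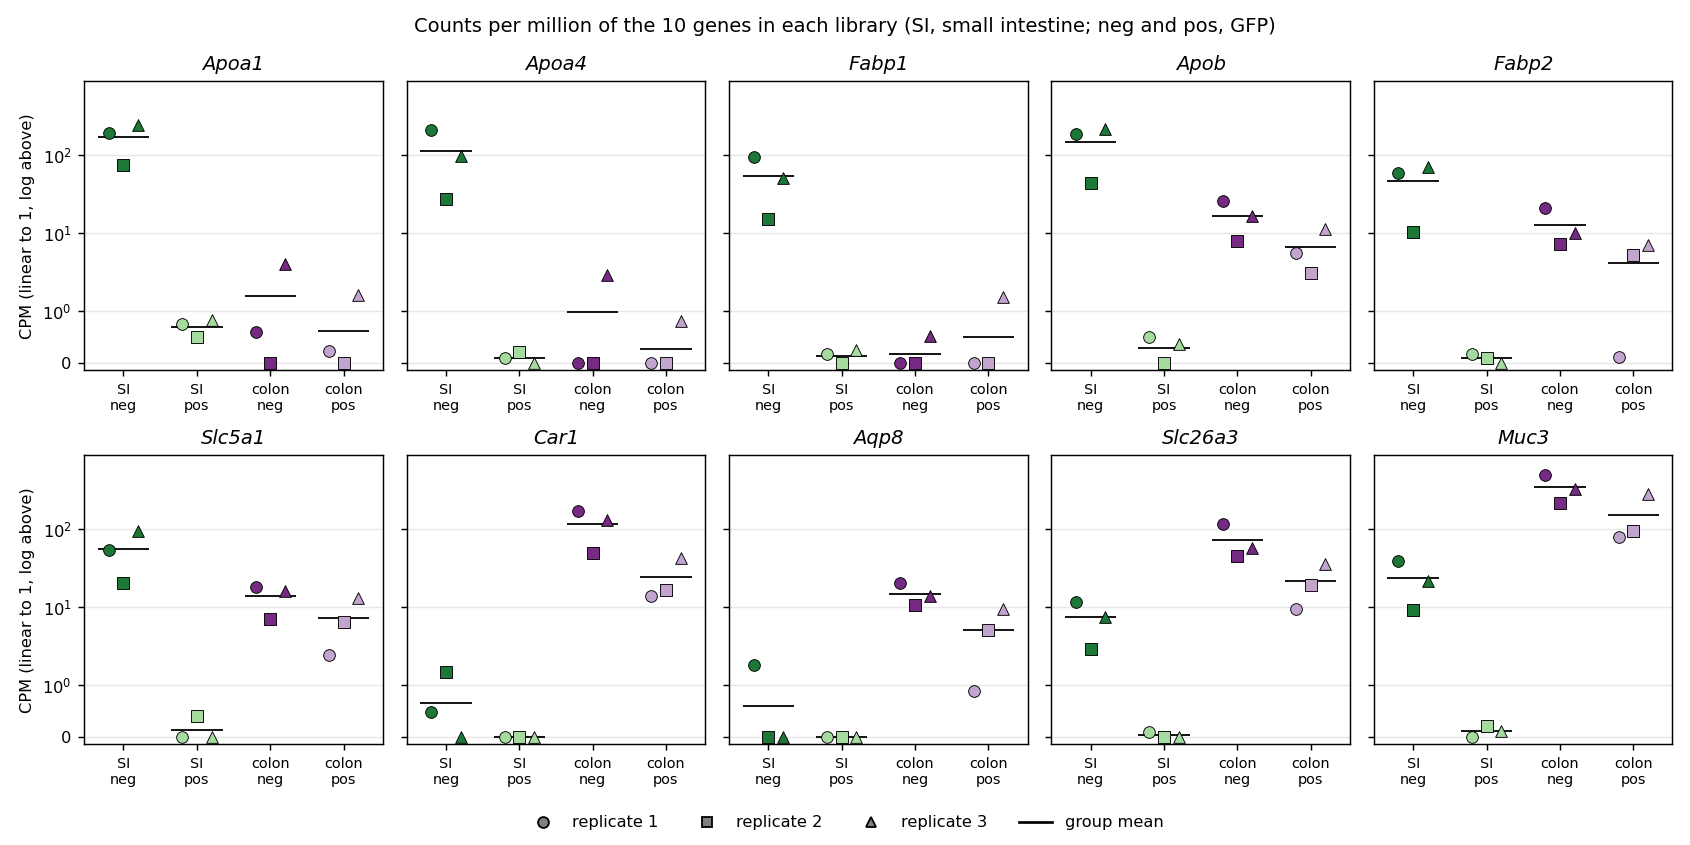
CPM of each gene (vertical axis, linear up to 1 and logarithmic above) in the 12 libraries, with a marker for each replicate and a line at the group mean. Apoa1, Apoa4 and Fabp1 lie at 4.05 CPM or below in all colonic libraries, while Apob, Slc5a1 and, in 5 of 6 libraries, Fabp2 are between 2.42 and 25.8 CPM there.

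The 6 small intestinal genes took other shares of their summed counts in colonic libraries than in small intestinal GFP-negative ones. Apob, Fabp2 and Slc5a1, a grouping made after their values were seen, held 37.8%, 38.7% and 49.1% of the counts of the 6 genes in small intestinal GFP-negative replicates 1 to 3. In colonic GFP-negative replicates they held 99.1%, 100% and 85.1%, and in colonic GFP-positive replicates 97.4%, 100% and 89.0%. Replicates 1 and 2 of either colonic sort held at most 4 counts of Apoa1, Apoa4 and Fabp1 together. Replicate 3 held 59 of 395 small intestinal gene counts in the GFP-negative and 34 of 308 in the GFP-positive library.

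Other small intestinal genes were also often highest in colonic replicate 3. Of 35 listed genes of fat uptake and the brush border, 26 had at least 4 counts over the colonic GFP-positive libraries, and 20 of these were highest in replicate 3. Other epithelial lists were highest in that library too: pan-epithelial genes, as given above, the 4 colonic genes at 374 CPM against 103.5 and 136.8 CPM in replicates 1 and 2, and 16 colonic transport and surface genes at 1214 CPM against 307 and 553 CPM. In the colonic GFP-negative libraries 14 of 26 were highest in replicate 3. Sis, the sucrase-isomaltase of the small intestinal brush border, chosen here after its values were seen, held 0, 0 and 27 counts in colonic GFP-negative and 0, 0 and 11 counts in colonic GFP-positive replicates 1 to 3. Colonic and small intestinal replicates 3 share a prefix in the names of their deposited columns, and no meaning is given for it. In the other direction, 13 of the 16 colonic transport and surface genes had at least 4 counts over the small intestinal GFP-negative libraries, of which 6 were highest in replicate 1, 1 in replicate 2 and 6 in replicate 3, while replicate 3 had 0 counts of Car1 and Aqp8. The part of this prefix, or of the epithelial signal of the library, in the colonic counts was not tested.

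**Figure D3:**
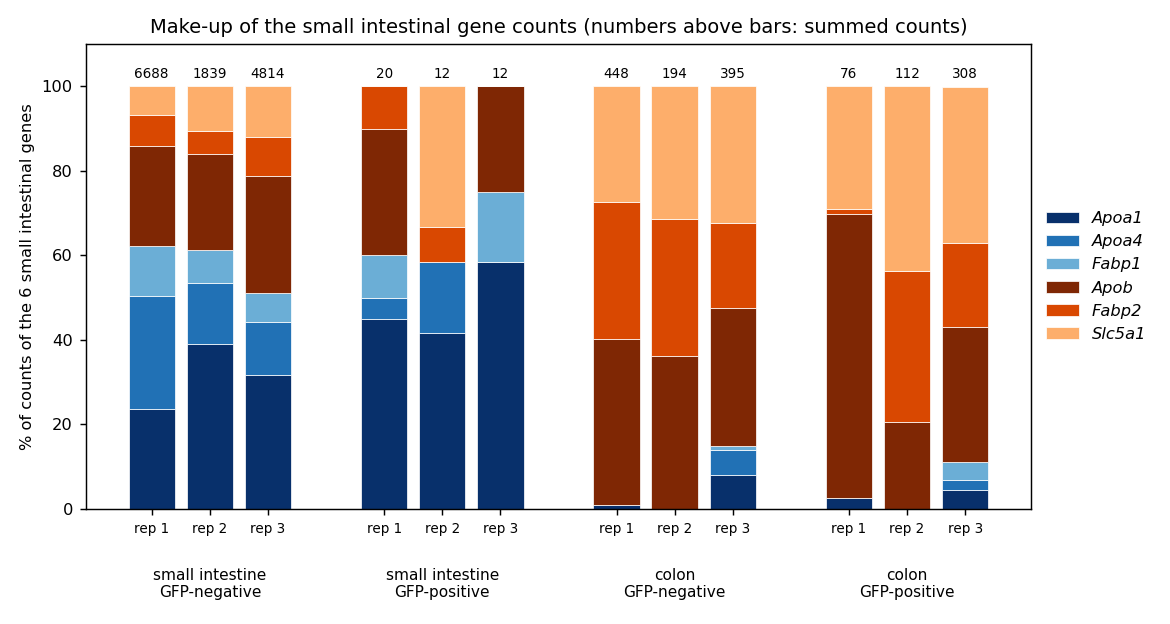
Percentage of the counts of the 6 small intestinal genes that each gene took, one stacked bar per library, with the summed counts above. Orange and brown shades (Apob, Fabp2 and Slc5a1) take 37.8% to 49.1% in small intestinal GFP-negative libraries and 85.1% to 100% in colonic libraries.

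Set against the epithelial signal of the same library, the sums of both regional lists overlapped in range between the colonic sorts, while Car1 did not. The 6 small intestinal genes gave 125, 60.1 and 80.6 counts per 100 pan-epithelial counts in small intestinal GFP-negative replicates 1 to 3, a mean of 88.6 ± 33.2 (SD, n = 3). They gave 1.94 ± 0.216 (SD, n = 3) in colonic GFP-negative and 1.89 ± 0.21 (SD, n = 3) in colonic GFP-positive libraries, with ranges that overlapped. The 4 colonic genes gave 24.2 ± 3.16 and 20.3 ± 4.32 (SD, n = 3 each) in the colonic sorts and 5.18 ± 2.76 (SD, n = 3) in small intestinal GFP-negative libraries. Slc5a1 gave 0.595, 0.548 and 0.621 on this scale in colonic GFP-negative and 0.592, 0.859 and 0.609 in colonic GFP-positive replicates. Muc3 made up most of the colonic sum, at 15.5 ± 2.34 and 15.2 ± 3.68, whereas Car1 gave 5.64, 3.90 and 5.09 in colonic GFP-negative and 3.44, 2.23 and 2.00 in colonic GFP-positive replicates, without overlap (SD, n = 3 each, with no test). In small intestinal GFP-positive libraries the ratios were 6.23 ± 0.781 for small intestinal and 0.593 ± 0.284 for colonic genes (SD, n = 3 each, with no test). Of the pan-epithelial sum of 21.8 to 23.8 CPM there, Lgals4 and Cldn4 gave 8.10 and 6.59 CPM on average, and Cldn4 measured 3.98 ± 5.11 CPM in the GFP-negative libraries (SD, n = 3).

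**Figure D4:**
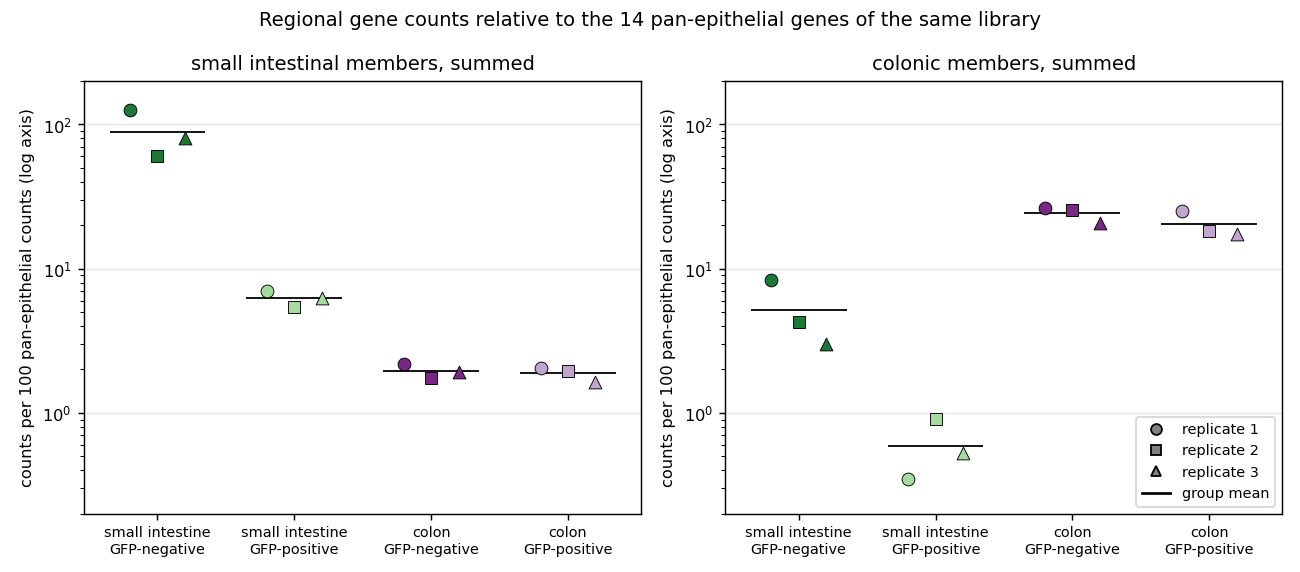
Summed counts of the small intestinal genes (left) and colonic genes (right) per 100 counts of 14 pan-epithelial genes in the same library (logarithmic vertical axis), by group, with a marker per replicate and a line at the mean. Colonic libraries lie between 1.65 and 2.17 on the left and between 17.5 and 26.5 on the right.

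Small intestinal GFP-positive libraries were nearly empty of all 10 genes, which sets the regional comparison among GFP-positive cells apart from that among GFP-negative cells. Their 6 small intestinal genes summed to 20, 12 and 12 counts and their 4 colonic genes to 1, 2 and 1. Muc3 measured 0, 0.197 and 0.118 CPM there and 79.2, 95.7 and 286 CPM in colonic GFP-positive libraries, a rise of 10.41 ± 1.04 (log2, SE; edgeR adjusted p = 0.000669). Slc26a3 held 1, 0 and 0 counts against 85, 145 and 312 counts, and rose by 8.83 ± 1.02 (log2, SE; edgeR adjusted p = 0.00105). Both groups of each gene were fully separated. Pooled counts gave Slc26a3 a ratio of 653 with a counting interval of 117 to 25800, and Muc3 a ratio of 1590 (543 to 7700).

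Car1 and Aqp8 had no count in any small intestinal GFP-positive library. In colonic GFP-positive replicates Car1 measured 14.1, 16.8 and 42.9 CPM and Aqp8 0.879, 5.15 and 9.37 CPM. Against a floor of 3 counts over the 3 libraries, Car1 was at least 253-fold higher and Aqp8 at least 51.8-fold higher in the colon. Both passed the test (edgeR adjusted p = 0.00421 and 0.0458), though Aqp8 lost its call in 9 of 13 alternative analyses.

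Among the small intestinal genes, Slc5a1 and Apob were called higher in the colon, against the direction seen in GFP-negative cells. Slc5a1 held 0, 4 and 0 counts in small intestinal and 22, 49 and 114 counts in colonic GFP-positive libraries, and rose by 5.65 ± 1.09 (log2, SE; edgeR adjusted p = 0.014). Apob held 6, 0 and 3 against 51, 23 and 99 counts and rose by 4.45 ± 0.99 (log2, SE; edgeR adjusted p = 0.0285). Fabp2 held 2, 1 and 0 against 1, 40 and 61 counts, and its difference of 5.21 ± 1.46 (log2, SE) did not pass (edgeR adjusted p = 0.0808). Apoa1, Apoa4 and Fabp1 overlapped between the tissues, with 21, 3 and 4 counts summed over the small intestinal and 16, 7 and 13 over the colonic libraries. Their differences of -0.14 ± 1.37, 1.36 ± 2.45 and 1.84 ± 1.64 (log2, SE) did not pass the test (edgeR adjusted p = 0.981, 0.864 and 0.676). The call of Slc5a1 was lost in 5 and that of Apob in 8 of 14 alternatives, both on the log2(TPM + 1) scale among them (limma adjusted p = 0.541 and 0.782).

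In all, 6 of the 10 genes were called higher in colonic GFP-positive libraries and 0 lower, where 4.57% of all genes tested were called, 2.75% higher and 1.81% lower. The median difference was 3.14 (log2) for the small intestinal genes and 8.41 for the colonic genes, with Car1 and Aqp8 at their bounds, beside -0.02 for all genes. Of the 14 pan-epithelial genes, 11 were called higher and 0 lower (median 6.08). Leaving out colonic replicate 3, the epithelium-rich library, left 4 genes called higher, without Apob (edgeR adjusted p = 0.0955) and Aqp8 (0.124). Leaving out small intestinal replicate 1 left 3 called higher, as did leaving out replicate 3, and on the log2(TPM + 1) scale, which compresses low values, 2 were.

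**Figure D5:**
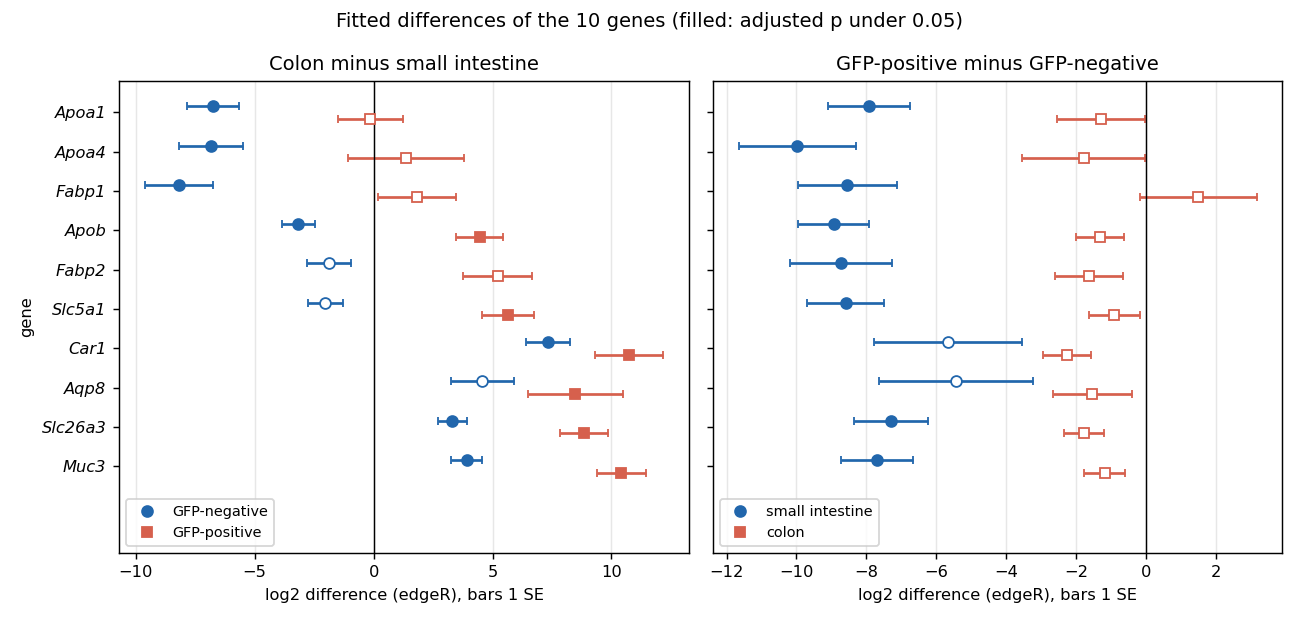
Fitted log2 differences with bars of 1 SE: colon minus small intestine in each sort (left) and GFP-positive minus GFP-negative in each tissue (right), filled where the adjusted p was under 0.05. The 6 small intestinal genes lie below 0 in GFP-negative cells, and 5 of them above 0 in GFP-positive cells, while the 4 colonic genes lie above 0 in both; fitted values of Car1 and Aqp8 against groups without a count depend on the prior count and are not bounds.

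Within the small intestine, GFP-positive libraries held very little of the signal. All 6 small intestinal genes fell, as did Slc26a3 and Muc3. Of all genes tested, 10.9% were called, 6.63% lower and 4.24% higher. Apob fell from 149.7 ± 92.9 to 0.285 ± 0.257 CPM (SD, n = 3 each), a difference of -8.93 ± 1.02 (log2, SE; edgeR adjusted p = 0.000588). Apoa4 fell from 113.0 ± 94.0 to 0.0934 ± 0.0990 CPM (SD, n = 3 each), a difference of -9.98 ± 1.68 (log2, SE; edgeR adjusted p = 0.00491). The differences were -8.59 for Slc5a1, -8.72 for Fabp2, -8.54 for Fabp1 and -7.92 for Apoa1. Apoa1 kept the most counts of the 10 genes in GFP-positive cells, with 9, 5 and 7.

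Muc3 fell by 7.69 ± 1.04 and Slc26a3 fell by 7.30 ± 1.05 (log2, SE; edgeR adjusted p = 0.00125 and 0.00138). Car1 and Aqp8, already at 18 and 15 counts over the GFP-negative libraries, were at least 7.62-fold and 6.35-fold lower in pooled counts but did not pass the test (edgeR adjusted p = 0.143 and 0.169). The pan-epithelial genes moved the same way, with 12 of 14 called lower and 0 higher (median -5.90), and the 12 epithelial transcription factors listed had 9 called lower. Calls of the 6 small intestinal genes stood in all 14 alternatives each. Slc26a3 and Muc3 lost theirs on the log2(TPM + 1) scale (limma adjusted p = 0.471 and 0.229).

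In the colon, values were lower on average in GFP-positive libraries for 9 of the 10 genes, and 0 passed the test by edgeR, where 8.69% of all genes were called, 4.06% lower and 4.62% higher. At an unadjusted p under 0.05 there were 2, Slc26a3 and Car1, while DESeq2 called 1 and limma called 3 on the log2(TPM + 1) and 1 on the log2(TPM + 0.1) scale. Car1, at 171, 49.6 and 133 CPM in GFP-negative replicates, stood at 14.1, 16.8 and 42.9 CPM after sorting for GFP, without overlap, a difference of -2.26 ± 0.68 (log2, SE; edgeR adjusted p = 0.0868). Slc26a3 measured 116, 45.3 and 57.8 against 9.34, 19.2 and 35.6 CPM, also without overlap, at -1.77 ± 0.56 (log2, SE; edgeR adjusted p = 0.0832). Without colonic GFP-positive replicate 3 its adjusted p was 0.0419. Fabp2 and Aqp8 did not overlap either, and the other 6 genes did. The share of all genes tested without overlap between these sorts was not counted, so these separations are description only. With the replicate number as a block, Car1 and Apob passed (edgeR adjusted p = 0.0414 and 0.0463). The pan-epithelial genes were lower as well, with a median of -1.07 (log2) and 0 of 14 called by edgeR (2 at an unadjusted p under 0.05, 0 by DESeq2 and 1 by limma on either scale).

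The effect of the GFP sort differed between tissues for Apob, Slc5a1, Muc3 and Fabp1 by the interaction term, where 2.06% of all genes were called, 1.16% higher and 0.895% lower. All 4 differences were positive, meaning a smaller fall, or none, in the colon. For Apob the difference of the effects was 7.62 ± 1.20 and for Slc5a1 7.69 ± 1.32 (log2, SE; edgeR adjusted p = 0.0161 and 0.0196). For Muc3 it was 6.51 ± 1.26 and for Fabp1 10.03 ± 2.18 (log2, SE; edgeR adjusted p = 0.0295 and 0.0462). Fabp1 rests on 17 colonic counts, all in replicate 3, and without colonic GFP-positive replicate 3 its difference was 4.83 with adjusted p = 1.0. For Muc3 the sign depends on the scale, with -0.18 on the log2(TPM + 1) scale, where low values are compressed.

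Per transcript length, within small intestinal GFP-negative libraries, Apoa1 and Fabp1 were the most abundant members, at 23.8 ± 12.6 and 17.9 ± 15.6 TPM (transcript abundance per length, scaled to a fixed total; SD, n = 3 each). Apoa4, Fabp2 and Apob followed at 7.31 ± 6.995, 6.33 ± 4.50 and 2.67 ± 1.64 TPM, then Muc3 and Slc5a1 at 1.45 ± 1.16 and 1.37 ± 0.872 TPM and Slc26a3 at 0.397 ± 0.277 TPM (SD, n = 3 each). Aqp8 and Car1 came last, at 0.0693 and 0.0600 TPM. Neighbours in this order overlapped in their ranges throughout, although Fabp1 exceeded Apoa4, Fabp2 exceeded Apob, Apob exceeded Muc3, Slc26a3 exceeded Aqp8 and Slc5a1 exceeded Slc26a3 in all 3 libraries. In colonic GFP-negative libraries the order was Muc3 (29.3 ± 9.44 TPM), Car1 (16.8 ± 8.07), Slc26a3 (3.84 ± 1.46), Fabp2 (2.37 ± 1.17) and Aqp8 (1.65 ± 0.452; SD, n = 3 each). Car1 and Slc26a3 did not overlap, and the other neighbours among these 5 did. Fabp2, a small intestinal gene, thus exceeded the colonic gene Aqp8 in all 3 colonic GFP-negative libraries. In colonic GFP-positive libraries Muc3 again led, at 12.7 ± 10.5 TPM (SD, n = 3), and lay above Car1, with a mean of 3.45 TPM, in every library.

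Other genes of fat absorption followed the members in GFP-negative cells. Of 13 tested genes of chylomicron assembly and fat uptake, 7 were called lower and 0 higher in the colon, with a median of -4.03 (log2). Over all genes tested, 4.21% were called in this comparison, 2.01% lower and 2.2% higher. Mttp, the transfer protein that loads lipid onto apolipoprotein B, fell from 115 ± 71.6 to 4.03 ± 0.328 CPM (SD, n = 3 each), a difference of -4.83 ± 0.55 (log2, SE; edgeR adjusted p = 0.00124). Creb3l3, a transcription factor of lipid metabolism, fell by 7.38 and Rbp2, the intestinal retinol-binding protein, fell by 6.70 (edgeR adjusted p = 0.00404 and 0.0105). In colonic GFP-negative replicates 1 to 3, Creb3l3 held 0, 1 and 1 counts and Rbp2 5, 1 and 8, so the size of these falls is uncertain. Slc27a4, a fatty acid transport protein, fell by 1.03 only (edgeR adjusted p = 0.0109).

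In GFP-positive cells, 0 of the 13 genes of this list were called by edgeR between tissues, where 4.57% of all genes tested were called. There were 5 at an unadjusted p under 0.05, 3 called by DESeq2 and 0 by limma on either scale. Apob and Slc5a1 were called in this comparison, but Apoa1, Apoa4, Fabp1 and Fabp2 were not. Mttp and Creb3l3 were still read in small intestinal GFP-positive libraries, at 11.3 ± 3.55 and 4.05 ± 2.32 CPM, where Apob was at 0.285 CPM (SD, n = 3 each).

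Of 16 tested brush border enzymes and transporters, 5 were called lower and 1 higher in colonic GFP-negative libraries (median -1.68). Lct, the lactase of milk sugar digestion, fell by 8.29, and Slc2a2, the basolateral glucose transporter, fell by 6.12 (log2; edgeR adjusted p = 0.00458 and 0.0287). In colonic GFP-negative replicates 1 to 3, Lct held 0, 0 and 3 counts and Slc2a2 0, 0 and 2. The size of these falls is therefore uncertain. Mep1a, a subunit of the protease meprin listed here as small intestinal, rose instead, by 4.30 ± 0.92 (log2, SE; edgeR adjusted p = 0.0327). Of the 2 Paneth cell genes called lower, Lyz1 and Defa24, neither had a count in a colonic GFP-negative library, against 9.99 ± 10.7 and 5.13 ± 1.84 CPM in small intestinal ones (SD, n = 3 each). The tested Paneth list had 4 genes and 0 called higher. Of 4 tested ileal bile acid genes, 0 were called by edgeR, DESeq2 or limma (median -0.675), where edgeR called 4.21% of all genes. The 5 listed summed to 335, 34 and 73 counts in small intestinal and 146, 82 and 140 in colonic GFP-negative replicates. Fabp6, one of them, held 152, 0 and 0 counts in small intestinal GFP-negative replicates 1 to 3.

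Of 13 tested colonic transport and surface genes, edgeR called 5 higher and 0 lower in colonic GFP-negative libraries (median 2.61), and 9 higher in GFP-positive ones. Over all genes tested, 2.2% and 2.75% were called higher in these comparisons. DESeq2 called 10 of the 13 in each. On the log2(TPM + 1) and log2(TPM + 0.1) scales, limma called 11 and 10 in GFP-negative but 2 and 6 in GFP-positive cells. Slc6a14, an amino acid transporter, rose by 7.46, and Atp12a, the non-gastric proton-potassium pump, by 7.41 (edgeR adjusted p = 0.0116 and 0.0137). In small intestinal GFP-negative replicates 1 to 3, Slc6a14 held 11, 0 and 0 counts and Atp12a 5, 0 and 0. The size of these rises is therefore uncertain. Ceacam20, a brush border adhesion protein, rose by 2.61 (log2; edgeR adjusted p = 0.0163). Atp12a differed from the members in GFP-positive cells: it measured 12.7 ± 9.89 CPM in small intestinal and 29.5 ± 18.6 CPM in colonic libraries (SD, n = 3 each; edgeR adjusted p = 0.566).

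The pan-epithelial list itself was higher in all 14 values in colonic GFP-negative libraries (median 1.59), with 0 called by edgeR, 7 at an unadjusted p under 0.05, 3 by DESeq2, and 8 and 7 by limma on the log2(TPM + 1) and log2(TPM + 0.1) scales. Krt8, a keratin of simple epithelium, measured 147 ± 76.0 against 761 ± 302 CPM (SD, n = 3 each; edgeR adjusted p = 0.0666). Among epithelial transcription factors, Onecut2 and Gata4, factors of the proximal gut, had differences of -4.86 ± 1.34 and -4.57 ± 1.67 (log2, SE), and Cdx2, the intestinal identity factor, one of 1.84 ± 0.62, and none of these passed (edgeR adjusted p = 0.0741, 0.154 and 0.135). Liver markers had few counts: 5 hepatocyte genes summed to at most 36 counts in any library. Serpina1a, Fgb and Fga, also listed, were not among the genes counted. Tat held 35, 7 and 19 counts in colonic and 0, 3 and 0 in small intestinal GFP-negative replicates 1 to 3. The 1 hepatocyte gene tested, Tat, was not called by edgeR in this comparison, but was by DESeq2 and by limma on either scale.

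Over the 12 libraries, the genes most like the mean of the small intestinal genes on the log2 CPM scale were Cyp2d26 (Pearson r = 0.990), Abcg5 (0.984), Gpd1 (0.984), Abcc2 (0.971) and Ggt1 (0.967). The genes most like the mean of the colonic genes were Pof1b (0.996), Ceacam1 (0.986), Gm3054 (0.985), Tfcp2l1 (0.985) and Trim15 (0.984). Each member correlated with the mean of the other members of its list at 0.820 (Fabp2) to 0.918 (Apoa4) for small intestinal genes and at 0.913 (Car1) to 0.954 (Slc26a3) for colonic genes. These are descriptions over 12 libraries whose 4 groups and epithelial content are shared by all genes.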

How the data were processed

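The deposited table of estimated counts holds expected counts per gene that are whole numbers throughout, so they were taken as rounded. A companion table was deposited as log2 values, log2(TPM + 1). The submitters' processing notes name Salmon 1.1.0, R 3.6.1 and mm10. The annotation, filters and strand setting are not given in the sources used here. Both tables hold 32052 genes, of which 31974 identifiers were given symbols from a GRCm38 annotation. Libraries sorted on CD31, which the design text also names, are not analysed here.

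Counts were tested with edgeR 4.0.16 in R 4.3.3 (quasi-likelihood, robust, TMM factors, 1 mean per group over all 12 libraries), after filterByExpr with a minimum count of 10 left 16757 genes. Standard errors are the fold change divided by the square root of F. Calls are at a Benjamini-Hochberg adjusted p under 0.05 over all genes tested. The test was run on simulated data with known changes first. Alternatives were other scalings, no filter, DESeq2 1.42.0, limma 3.58.1 on log2(TPM + 1) and log2(TPM + 0.1), a fit to the compared libraries only, a replicate block and leaving out each library. Totals of 6489835 to 12286054 counts limit the precision of low genes. Floors are 3 counts over a group, and intervals are exact at 95%. Floors and intervals cover counting error only.

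The 10 genes and all lists were chosen with earlier results of these data known. Named were all 10 genes, up to 4 genes per other list with the smallest adjusted p, and the 5 genes per list most correlated with its mean. Some listed genes that the rule names are not reported here. Motif letters were chosen with the sequences in view. The labels give the replicate numbers in all groups. Deviations from the group means correlated between same-numbered small intestinal sorts at 0.323, 0.179 and 0.166, over the limit of 0.1 set for pairing. The values reported are from the fit without a block, and the block is an alternative. Between the colonic sorts they correlated at 0.00933, 0.0465 and 0.0903. Between tissues, GFP-negative replicates 3, whose columns share a prefix, correlated at 0.223, which is also over 0.1. GFP-negative replicates 1 and 2 gave 0.0976 and 0.0281 between tissues. GFP-positive replicates 1 to 3 gave 0.0204, 0.0496 and 0.0540 between tissues. The source of these correlations was not tested.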

Additional observations from a re-analysis of the deposited data

Results flagged for a closer look

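The effect of the GFP sort differed between colon and small intestine for 4 of the 10 genes by the interaction term of the edgeR fit, whose Benjamini-Hochberg adjusted p is given. The difference of the effects (colon minus small intestine, log2) was 7.685 for Slc5a1 (adjusted p = 0.0196), 7.618 for Apob (0.0161), 6.506 for Muc3 (0.0295) and 10.03 for Fabp1 (0.0462). Slc5a1, Apob and Muc3 were lower in GFP-positive than GFP-negative cells of the small intestine in 3 of 3 libraries against 3, whereas their colonic groups overlapped. Pan-epithelial genes moved with them, with 6 of 14 called by edgeR in the same direction and a median difference of 4.93. DESeq2 called 11 of the 14 and limma called 0 on either TPM scale. Over all genes tested, edgeR called 2.06%, 1.16% higher and 0.895% lower. The part of the pan-epithelial genes in the result was not tested.

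Several of these calls were lost when 1 library was left out. Apob lost its call without small intestinal GFP-positive replicate 3 and without colonic GFP-negative replicate 3 (adjusted p = 0.0537 each). Slc5a1 lost it in 5 of 12 such fits (highest adjusted p = 0.0647, without colonic GFP-negative replicate 2) and Muc3 in 7 (0.0952, without small intestinal GFP-positive replicate 3). Fabp1 lost it in 9 of 12 (1.0, without colonic GFP-positive replicate 3).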

How the results depend on the processing

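Over 739 alternative values of the 10 genes, 628 kept direction and call, 70 lost a call, 27 gained one and 14 changed sign. Depth limits the small intestinal GFP-positive values, which rest on 13 to 21 counts per library, and the colonic values of Apoa1, Apoa4 and Fabp1. The cause of the changes listed here was not tested.

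The genes called between tissues in GFP-negative cells numbered 706, and 1635 with DESeq2, 1509 and 1394 with limma on log2(TPM + 1) and log2(TPM + 0.1), 406 with only the libraries compared, and 187 to 1229 when 1 library was left out. The share called higher was 52.3%, and 62.7% with library size only. It was 87.3% and 85.1% with limma, where the median of all genes was 0.193 and 0.425 (log2). In GFP-positive cells 765 were called, and 1390 with DESeq2, 376 and 502 with limma, and 416 to 613 with 1 library left out; the share called higher was 60.3%, and 82.7% and 82.1% with limma. For the GFP effect in the small intestine 1821 were called, and 671 and 982 with limma, 850 with only the libraries compared, and 1239 to 2644 with 1 library left out. The share called higher was 39.0%, and 51.1% with limma on log2(TPM + 1). In the colon 1456 were called, 3016 with only the libraries compared and 816 to 1140 with 1 library left out. For the difference of the effects 345 were called, 1088 with DESeq2, 160 and 106 with limma and 69 to 1044 with 1 library left out, and the share called higher was 56.5%, and 30.6% and 40.6% with limma.

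Of the 10 genes, those called lower in colonic GFP-negative cells numbered 4, and 2 with no filter, 1 with only the libraries compared and 1 to 4 with 1 library left out. Those called higher in colonic GFP-positive cells numbered 6, and 3 with no filter, 2 and 3 with limma, and 3 to 6 with 1 library left out. Those called lower by the GFP effect in the small intestine stayed at 8 with 1 library left out, and in the colon they numbered 0, with 1 by DESeq2, 3 and 1 by limma, and 0 to 1 with 1 library left out. For the difference of the effects there were 4, and 2 with no filter, 7 with DESeq2, 2 with limma on log2(TPM + 1) and 0 to 6 with 1 library left out.

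With 1 library left out, values that changed sign ranged as follows. Between tissues in GFP-positive cells these were Apoa1 at -2.36 to 0.389 (0.312 without colonic GFP-positive replicate 1, 0.389 without replicate 2), Apoa4 at -2.94 to 2.19 and Fabp1 at -3.32 to 2.46 (lowest without replicate 3 for both). For the GFP effect in the colon they were Apoa1 at -3.54 to 1.22 and Apoa4 at -6.12 to 4.35 (highest without colonic GFP-negative replicate 3) and Fabp1 at -3.69 to 5.2 (lowest without colonic GFP-positive replicate 3). For the difference of the effects it changed with limma on log2(TPM + 1) for Car1 (-1.93), Slc26a3 (-0.694), Aqp8 (-0.717) and Muc3 (-0.176), on log2(TPM + 0.1) for Car1 (-1.72) and Aqp8 (-1.21), and for Aqp8 with 1 library left out (-1.53 to 4.49, lowest without small intestinal GFP-negative replicate 1).

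The small intestinal share of member counts, without Muc3, was 98.37% in small intestinal GFP-negative, 98.41% in small intestinal GFP-positive, 18.21% in colonic GFP-negative and 26.89% in colonic GFP-positive libraries. Without Muc3 and Slc26a3 it was 99.65%, 100%, 25.97% and 38.8%. On the TPM scale it was 96.68% in small intestinal GFP-negative and 7.123% in colonic GFP-positive libraries. With 1 library left out it ran from 93.58% to 95.08%, 89.01% to 93.77%, 6.972% to 8.02% and 8.031% to 9.176% in the same order.

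With the replicate number as a block, 2 of the 10 genes were called lower by the GFP effect in the colon (Apob -1.36, Car1 -2.24), and 5 rather than 6 were called higher in colonic GFP-positive cells, Aqp8 being lost (edgeR adjusted p = 0.0736). Between the small intestinal sorts, same-numbered libraries correlated over the limit set for pairing, though the labels do not say that they are paired. There the block called 8 of the 10 genes lower, as without it. For the difference of the effects Apoa1 passed with the block (6.52, edgeR adjusted p = 0.00758).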

Other observations

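The deposited count and TPM tables scale Apob differently between libraries. Relative to Slc5a1 in the same library, the counts per unit of TPM of Apob ranged from 0.878 to 3.55 over the 9 libraries with enough counts, whereas those of Apoa4 were 0.406 in each library with a value. In colonic GFP-negative replicates 1 to 3, Apob held 176, 70 and 129 counts but 0.234, 0.279 and 0.298 TPM. The library highest by count was therefore lowest by TPM.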
